A study of Mus musculus with 8 samples.

Results

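Terminal erythroid maturation genes are described here in mouse spleen, as 10 genes chosen by symbol: Car1, Car2, Bpgm, Bnip3l, Cldn13, Prdx2, Blvrb, Trim10, Trim58 and Hemgn. They had 11 of the 23517 transcript rows in the expression table (Car1 had 2), and all 11 passed the filter of a mean of at least 0.5 FPKM. FPKM is the number of sequenced fragments scaled to transcript length and library size. Whole spleens came from untreated male C57BL/6 mice aged 8 to 12 weeks, with 4 wild-type animals and 4 animals of the TTPΔARE genotype. Zfp36 encodes TTP (tristetraprolin), which speeds the decay of mRNAs by binding AU-rich elements in their 3′ UTRs. Its own mRNA carries such an element, and TTPΔARE mice have it deleted. Each library was total RNA of 1 spleen. The labels give no litter, batch or zygosity, and replicate numbers only name the animals.

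Red cells form through a series of dividing erythroblasts that make hemoglobin, condense and expel the nucleus. These become reticulocytes, which clear their mitochondria. The adult mouse spleen takes part in this process, with erythroblasts in the red pulp, and it also holds and removes circulating red cells and reticulocytes. Gene products of the last steps include gas and metabolite enzymes, antioxidant enzymes, the mitochondrial clearance receptor and ubiquitin ligases that act on the shrinking cell. In whole tissue, more cells of a type and more RNA per cell cannot be told apart.

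The libraries were of similar size. Depth estimated from the steps between low values was 28300000 to 32200000 fragments in the wild-type libraries and 29000000 to 32200000 in the TTPΔARE libraries. Zfp36 stood at 40.3 ± 3.91 FPKM in wild-type and 52.9 ± 4.9 FPKM in TTPΔARE spleens (SD, n = 4 each, limma adjusted p = 0.0323). The B cell markers Cd79a, Cd79b and Ms4a1, the macrophage factor Spic and the T cell genes Cd3e and Cd4 were present in every library, as the tissue label requires. Summed FPKM of 5 adult globin transcripts was 9558, 11227, 6435 and 5974 in wild-type replicates 1 to 4 and 15511, 14478, 22082 and 21839.6 in TTPΔARE replicates 1 to 4. Globin levels did not overlap between the genotypes (log2 difference 1.18, exact two-sided permutation p = 0.0286, the smallest that 70 assignments can give), and among wild-type spleens replicates 1 and 2 were above replicates 3 and 4.

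Promoters of members that fell into different patterns across the spleens are printed first. RefSeq promoter windows on GRCm38.p6, from 250 bases before to 50 bases after the start site, matched 6 of the 10 genes: Bpgm, Prdx2, Blvrb, Trim10, Trim58 and Hemgn. They were searched on both strands for GATA words, meaning GATA with A or T before it and A or G after it, which GATA factors bind, and for the word CCNCNCCC, the core of the sites bound by the erythroid factor KLF1. Shown are Bpgm, whose level went with the globins in wild-type spleens, and Hemgn, Trim10 and Trim58, whose levels did not. The windows of Prdx2 and Blvrb, whose levels did not go with the globins either, are not printed. Capitals mark the words found.

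Bpgm, chr6:34476106-34476405, plus strand: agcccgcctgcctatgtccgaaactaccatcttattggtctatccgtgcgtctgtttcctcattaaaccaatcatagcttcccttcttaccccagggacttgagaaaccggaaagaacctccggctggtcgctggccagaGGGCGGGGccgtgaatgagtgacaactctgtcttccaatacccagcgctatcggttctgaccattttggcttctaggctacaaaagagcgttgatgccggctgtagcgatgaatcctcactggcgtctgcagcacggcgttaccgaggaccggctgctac
Hemgn, chr4:46404134-46404433, minus strand: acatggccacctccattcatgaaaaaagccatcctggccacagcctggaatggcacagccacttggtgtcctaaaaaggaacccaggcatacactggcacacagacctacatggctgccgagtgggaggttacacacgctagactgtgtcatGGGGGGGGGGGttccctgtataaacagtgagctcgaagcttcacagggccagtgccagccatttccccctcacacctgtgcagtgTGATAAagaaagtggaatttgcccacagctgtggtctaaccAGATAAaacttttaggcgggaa
Trim10, chr17:36869324-36869623, plus strand: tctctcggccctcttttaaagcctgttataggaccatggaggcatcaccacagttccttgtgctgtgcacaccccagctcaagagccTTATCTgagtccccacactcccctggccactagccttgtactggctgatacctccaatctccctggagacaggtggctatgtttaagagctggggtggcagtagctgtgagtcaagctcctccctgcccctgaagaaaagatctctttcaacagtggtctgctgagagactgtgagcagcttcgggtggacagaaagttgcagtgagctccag
Trim58, chr11:58640215-58640514, plus strand: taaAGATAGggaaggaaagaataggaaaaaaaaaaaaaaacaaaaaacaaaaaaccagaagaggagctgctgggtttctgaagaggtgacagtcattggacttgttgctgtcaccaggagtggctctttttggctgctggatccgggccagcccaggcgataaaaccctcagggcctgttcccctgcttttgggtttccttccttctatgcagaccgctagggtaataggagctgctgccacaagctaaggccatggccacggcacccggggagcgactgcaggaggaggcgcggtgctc

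GATA words occurred in 29.8% of the 32851 promoter windows and CCNCNCCC in 49.5%. The Hemgn window held 2 GATA words, one of them beginning 13 bases before the start site and the other 29 bases after it, and a run of G that gives 4 overlapping matches of CCNCNCCC. Trim10 and Trim58 held 1 GATA word each. The Bpgm and Prdx2 windows held none of the GATA words and held 1 and 2 matches of CCNCNCCC. Prdx2 had the same order of wild-type spleens as Hemgn, Trim10 and Trim58, so GATA words did not separate the patterns in these windows. Blvrb has 2 annotated windows, of which the first had 6 matches of CCNCNCCC and the second 1 GATA word. These matches describe the letters of the windows and not binding.

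Higher levels in TTPΔARE spleens passed the test for 2 of the 10 genes, Bpgm and Bnip3l. All 11 transcripts had a log2 change above 0, where 51% of the 16608 tested transcripts did. By limma, 2 of 11 had an adjusted p under 0.05, both of them higher, where 4% of all tested transcripts were called in either direction and 2.01% higher. Before adjustment, 10 of the 11 had a p under 0.05, and 11.6% of all tested transcripts were higher at that level. The median log2 change over the 11 was 1.05, and 0.003 over all tested transcripts. Car1, Car2, Cldn13, Trim10 and Hemgn missed the threshold with larger log2 values than Bpgm and wider spreads within a genotype, while Prdx2, Blvrb and Trim58 had smaller log2 values than Bpgm.

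**Figure D1:**
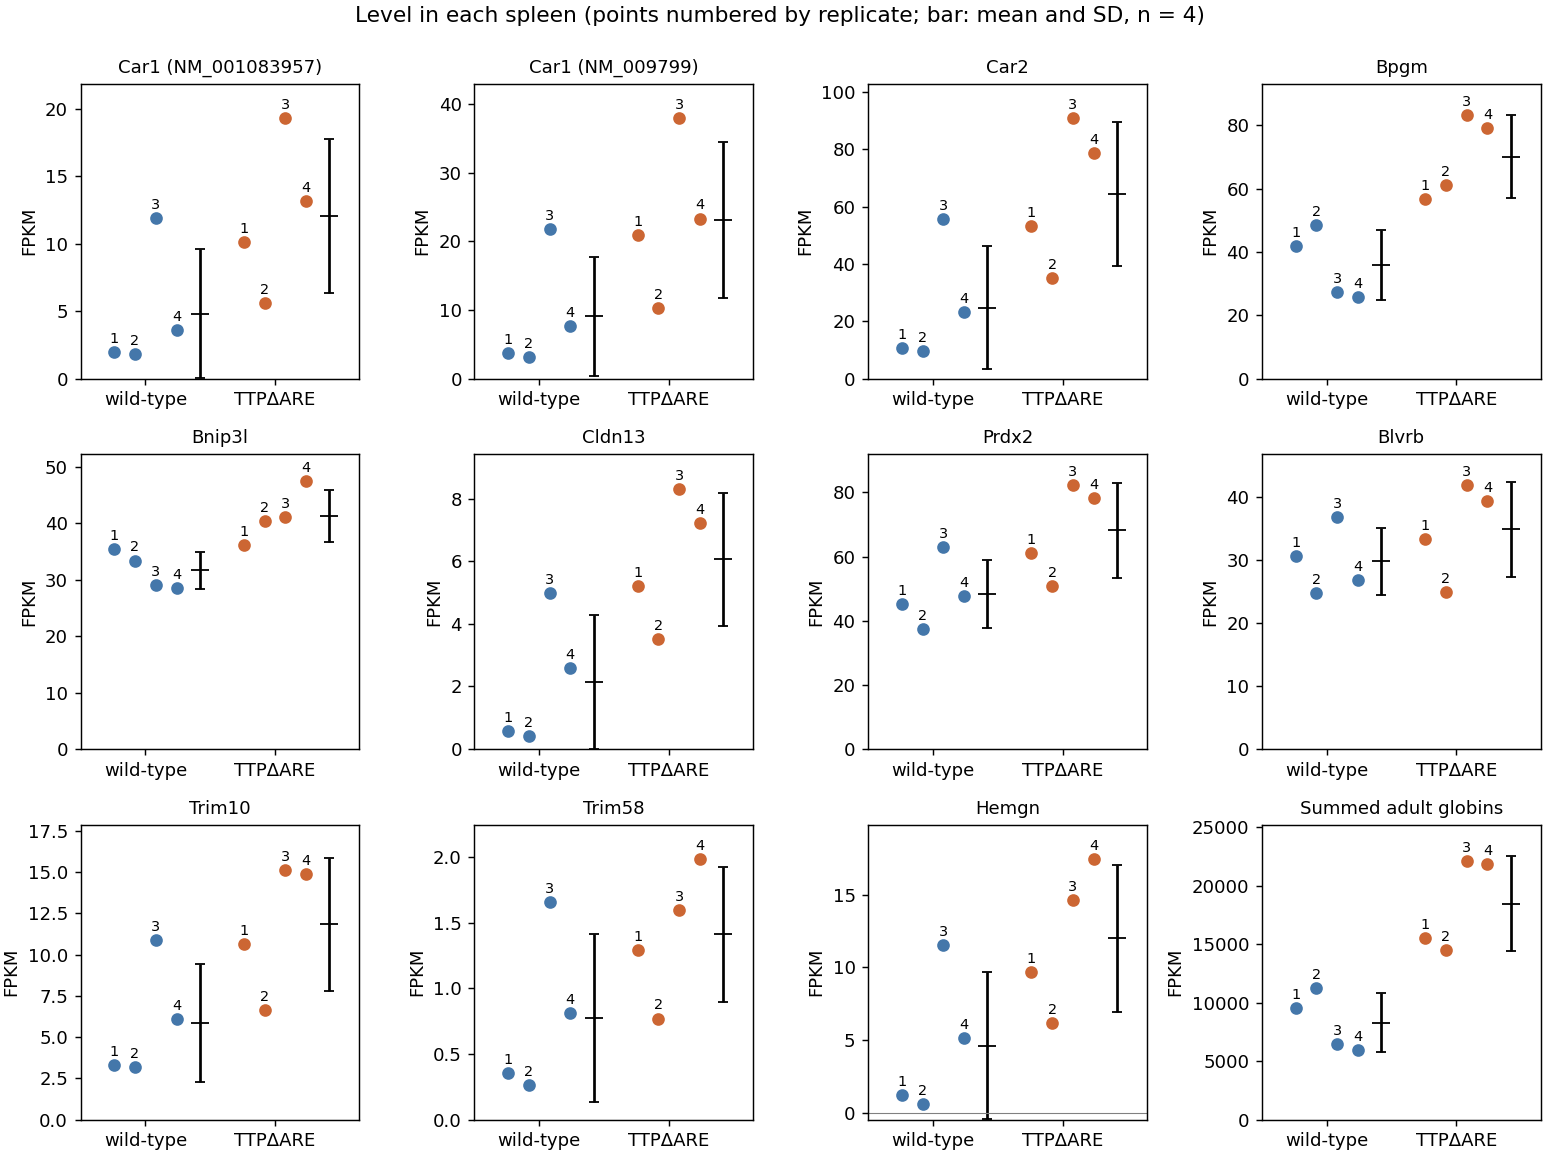
Level of each member transcript and of the summed adult globins (y axis, FPKM) in the 4 wild-type and 4 TTPΔARE spleens, numbered by replicate, with the group mean and SD as a bar beside the points. Bpgm, Bnip3l and the globins do not overlap between genotypes, while for the other members wild-type replicate 3 lies within the TTPΔARE range.

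Gene positions are given on GRCm38 (mm10). Bpgm (NM_007563, chr6:34476356-34505136) encodes bisphosphoglycerate mutase, the red cell enzyme whose product lowers the oxygen affinity of hemoglobin. Its level was 42.0, 48.4, 27.4 and 25.9 FPKM in wild-type replicates 1 to 4 and 56.8, 61.1, 83.3 and 79.0 FPKM in TTPΔARE replicates 1 to 4. Every TTPΔARE spleen was above every wild-type spleen. The log2 change was 0.99 with an SE of 0.196 (limma adjusted p = 0.0212), on the scale of log2(FPKM + 0.5). Bpgm no longer passed with replicate 4 of the wild-type or replicate 3 or 4 of the TTPΔARE spleens left out (adjusted p = 0.0619, 0.0734 and 0.0653), at log2 values of 0.85, 0.90 and 0.92.

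Bnip3l (NM_009761, chr14:66985238-67008877) encodes NIX, the receptor on the outer mitochondrial membrane through which reticulocytes clear their mitochondria. Wild-type replicates 1 to 4 stood at 35.4, 33.4, 29.1 and 28.6 FPKM and TTPΔARE replicates 1 to 4 at 36.2, 40.4, 41.1 and 47.4 FPKM. The groups did not overlap, but the highest wild-type and the lowest TTPΔARE spleen were close. The log2 change was 0.38 with an SE of 0.0915 (limma adjusted p = 0.0453). This call held without wild-type replicate 1 or TTPΔARE replicate 1, and adjusted p was 0.0611 to 0.128 with any of the other 6 spleens left out. Non-overlap upward was found for these 2 of 11 transcripts and for 6.53% of all tested transcripts.

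Car1 and Car2 encode cytosolic carbonic anhydrases, which interconvert carbon dioxide and bicarbonate. They lie 77.9 kb apart, at chr3:14766214-14808365 and chr3:14886269-14900770, with the carbonic anhydrase gene Car3 between them. Car2 (NM_009801) stood at 10.6, 9.57, 55.6 and 23.1 FPKM in wild-type replicates 1 to 4 and at 53.1, 35.0, 90.9 and 78.9 FPKM in TTPΔARE replicates 1 to 4. Wild-type replicate 3 was above TTPΔARE replicates 1 and 2, so the groups overlapped. Its log2 change was 1.63 with an SE of 0.481, a 95% interval of 0.58 to 2.69 and a limma adjusted p of 0.0848.

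The Car1 transcript NM_009799 had 3.76, 3.17, 21.8 and 7.66 FPKM in the wild-type and 20.9, 10.3, 37.9 and 23.3 FPKM in the TTPΔARE replicates. The second transcript, NM_001083957, had 2.0, 1.80, 11.9 and 3.60 FPKM against 10.1, 5.62, 19.3 and 13.2 FPKM. Both gave the same order of spleens, and since they are transcripts of 1 gene the split of reads between them is uncertain. Their log2 changes were 1.55 and 1.48, with limma adjusted p of 0.120 and 0.117.

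Cldn13 (NM_020504, chr5:134914250-134915530) encodes a claudin found on mouse erythroblasts. It went from 0.561, 0.417, 5.0 and 2.58 FPKM in wild-type replicates 1 to 4 to 5.20, 3.51, 8.31 and 7.21 FPKM in the TTPΔARE replicates. Only wild-type replicate 3 reached into the TTPΔARE range, above TTPΔARE replicate 2. The log2 change was 1.64 with an SE of 0.495 (limma adjusted p = 0.0917).

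Hemgn (NM_053149, chr4:46393989-46404183) encodes hemogen, a nuclear protein of blood-forming cells that is a target of GATA1. The wild-type spleens had 1.18, 0.580, 11.6 and 5.10 FPKM and the TTPΔARE spleens 9.67, 6.13, 14.6 and 17.4 FPKM. Hemgn was the most variable member within wild-type, with a highest value 19.9 times the lowest. It had a log2 change of 1.81, the largest point estimate among the members, with a 95% interval of 0.41 to 3.20 and a limma adjusted p of 0.135.

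Trim10 and Trim58 encode tripartite motif ubiquitin ligases of the erythroid lineage. TRIM58 binds the motor dynein and acts in the expulsion of the nucleus, and TRIM10 is required for terminal differentiation of mouse erythroleukemia cells. Trim10 (NM_011280, chr17:36869496-36877833) had 3.32, 3.17, 10.9 and 6.08 FPKM in wild-type and 10.7, 6.66, 15.2 and 14.9 FPKM in TTPΔARE spleens (log2 1.05, limma adjusted p = 0.117). Trim58 (NM_001039047, chr11:58640465-58652404) was the lowest member, with 0.354, 0.262, 1.66 and 0.815 FPKM against 1.29, 0.771, 1.60 and 1.99 FPKM. Its log2 change was 0.67 with an SE of 0.301 (limma adjusted p = 0.230), a scale on which changes near the added 0.5 FPKM are understated. In both genes wild-type replicate 3 exceeded TTPΔARE replicates 1 and 2, and for Trim58 also replicate 3.

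Prdx2 and Blvrb encode redox enzymes that are abundant in red cells and present in many other cells. Prdx2 (NM_011563, chr8:84969622-84974811), a peroxiredoxin that removes hydrogen peroxide, had 45.3, 37.5, 62.9 and 47.8 FPKM in wild-type and 61.1, 50.9, 82.2 and 78.3 FPKM in TTPΔARE spleens (log2 0.49, limma adjusted p = 0.132). Blvrb (NM_144923, chr7:27447978-27465981) encodes a reductase of flavin and biliverdin and lies 910.8 kb from Zfp36 on the same chromosome. It stood at 30.7, 24.8, 36.8 and 26.9 FPKM against 33.4, 24.9, 41.9 and 39.4 FPKM, and its log2 change of 0.21 had a 95% interval of -0.13 to 0.56 (limma adjusted p = 0.487). Blvrb was the only member above an unadjusted p of 0.05, and its TTPΔARE replicate 2 was nearly as low as the lowest wild-type spleen.

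Per unit of length, the wild-type means ran from Prdx2 (48.4 ± 10.7 FPKM, SD, n = 4) through Bpgm (35.9 ± 11.04), Bnip3l (31.6 ± 3.30), Blvrb (29.8 ± 5.30) and Car2 (24.7 ± 21.5) to the Car1 transcript NM_009799 (9.10 ± 8.69), Trim10 (5.86 ± 3.60), Hemgn (4.60 ± 5.05), Cldn13 (2.14 ± 2.15) and Trim58 (0.773 ± 0.639). The spleens' values overlapped between all neighbours in that order. In TTPΔARE spleens Bpgm (70.1 ± 13.1 FPKM), Prdx2 (68.1 ± 14.7) and Car2 (64.5 ± 25.2) stood at the top, with overlapping values. Bnip3l (41.3 ± 4.61), Blvrb (34.9 ± 7.56), Car1 NM_009799 (23.1 ± 11.4), Hemgn (12.0 ± 5.05), Trim10 (11.9 ± 4.03), Cldn13 (6.06 ± 2.13) and Trim58 (1.41 ± 0.514) followed, and of all neighbours Cldn13 and Trim58 alone did not overlap.

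The number of members called depended most on wild-type replicate 3. Without it, 8 of the 11 transcripts passed, from 7 genes: Bpgm, both Car1 transcripts, Car2, Cldn13, Trim10, Trim58 and Hemgn, against 2.63% of all tested transcripts called higher in that fit. The log2 changes were then 2.14 for Car2, 2.12 for Cldn13, 2.43 for Hemgn, 1.38 for Trim10 and 0.97 for Trim58 (limma adjusted p = 0.0138, 0.0189, 0.0266, 0.0253 and 0.0469). Car1 NM_009799 stood at 2.09 and NM_001083957 at 2.01. Bnip3l lost its call in the same fit (log2 0.34, adjusted p = 0.0860), and Prdx2 (0.62, adjusted p = 0.0538) and Blvrb (0.32, adjusted p = 0.285) did not pass. With replicate 4 of the wild-type or replicate 3 or 4 of the TTPΔARE spleens left out, 0 of 11 passed by limma. Before adjustment, 9 had a limma p under 0.05 in each of these fits. Calls also fell over all tested transcripts, with 114, 93 and 117 called higher in these fits against 333 with all 8 spleens. In either direction 3086 of 16628, 2514 of 16598 and 2776 of 16608 transcripts had an unadjusted limma p under 0.05. The labels give no ground for leaving out any spleen, and the fit of all 8 is the one reported.

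**Figure D2:**
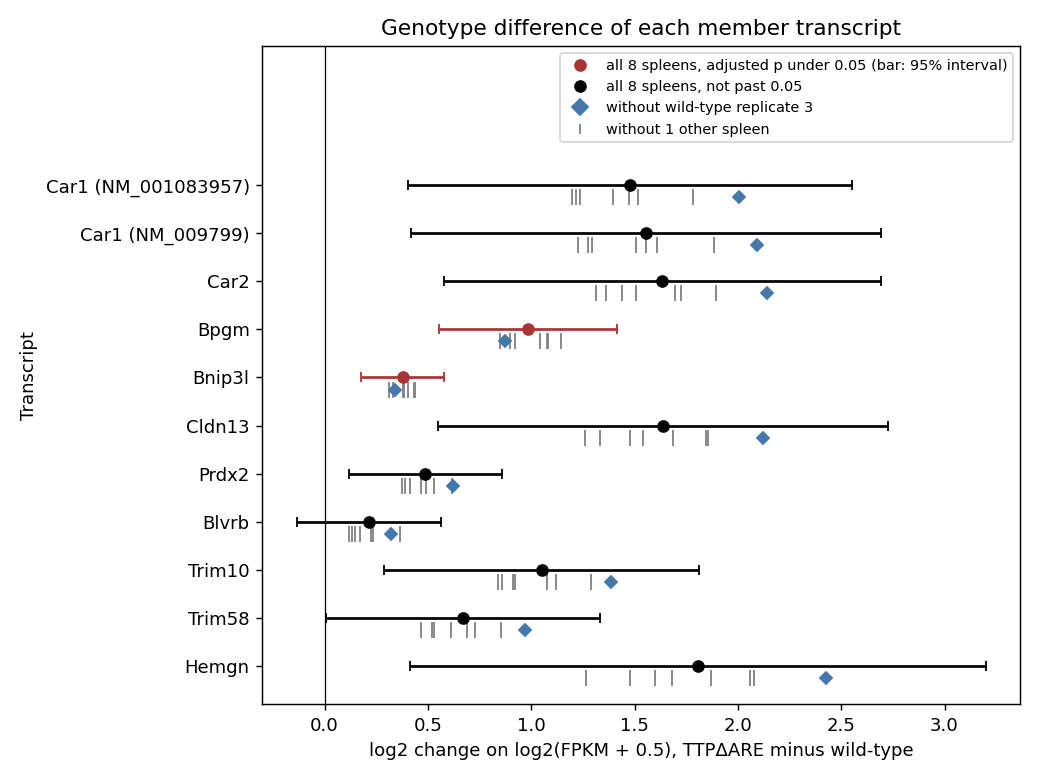
Genotype difference of each member transcript (x axis, log2 change on log2(FPKM + 0.5), TTPΔARE minus wild-type) with its 95% interval from limma over all 8 spleens, and below it the estimates with 1 spleen left out. Bpgm and Bnip3l passed with all 8 spleens, and leaving out wild-type replicate 3 moved Car1, Car2, Cldn13, Trim10, Trim58 and Hemgn to higher values.

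Within the wild-type spleens the members did not follow the globins, with the exception of Bpgm and, in part, Bnip3l. Globins were highest in replicate 2, then 1, 3 and 4, and Bpgm had the same order. Bnip3l was highest in replicate 1, then 2, 3 and 4. Both Car1 transcripts, Car2, Cldn13, Prdx2, Trim10, Trim58 and Hemgn all had the order 3, 4, 1 and 2, in which the spleens with the least globin had the most of these mRNAs. For Prdx2, wild-type replicates 4 and 1 were close (47.8 and 45.3 FPKM). Blvrb had the order 3, 1, 4 and 2. Counted by gene, 7 of the 10 had the order of Car2 and 1 had that of the globins, and of all 12410 tested symbols 4.26% and 3.17% had these orders. With 4 spleens no correlation was computed, and the difference in order was not tested.

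**Figure D3:**
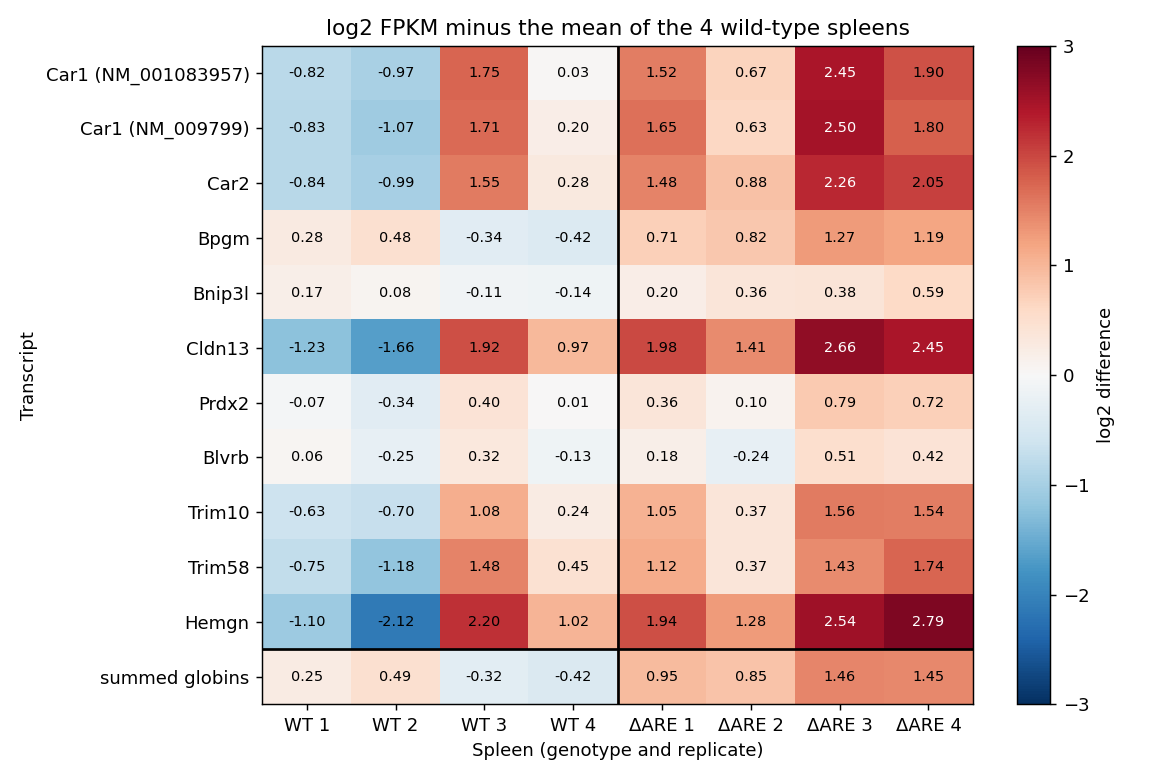
Level of each member transcript and of the summed globins in every spleen (columns) as the log2 difference from the mean of the 4 wild-type spleens, with red above and blue below that mean. In wild-type replicates 3 and 4 the globins, Bpgm and Bnip3l are below the wild-type mean, while Car1, Car2, Cldn13, Prdx2, Trim10, Trim58 and Hemgn are above it. In wild-type replicate 4, Prdx2 (0.007) and Car1 NM_001083957 (0.03) are close to that mean.

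Bpgm kept a near-constant ratio to the globins. Per 1000 FPKM of summed globins it stood at 4.39, 4.31, 4.26 and 4.33 FPKM in wild-type replicates 1 to 4, a highest value 1.03 times the lowest, while Bpgm itself varied 1.87 times across the same spleens. In TTPΔARE replicates 1 to 4 the ratio was 3.66, 4.22, 3.77 and 3.62, each below the wild-type values. The SD of log2 Bpgm over the wild-type spleens was 0.447, and that of its log2 ratio to the globins was 0.0180.

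The other 10 transcripts varied more in wild-type after division by the globins than before. Hemgn per 1000 FPKM of globins was 0.123, 0.0516, 1.80 and 0.853 FPKM in wild-type replicates 1 to 4, a 34.8-fold range, and 0.624, 0.424, 0.663 and 0.799 in the TTPΔARE replicates, a 1.89-fold range. Car2 ran 1.11, 0.853, 8.64 and 3.87 in wild-type and 3.43, 2.42, 4.12 and 3.61 in TTPΔARE spleens. For both genes the TTPΔARE ratios lay inside the wild-type range. Bnip3l had ratios of 3.70, 2.97, 4.53 and 4.79 in wild-type and 2.33, 2.79, 1.86 and 2.17 in TTPΔARE spleens, lower in each of the latter. Prdx2 had 4.74, 3.34, 9.78 and 8.00 in wild-type and 3.94, 3.51, 3.72 and 3.59 in TTPΔARE spleens.

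**Figure D4:**
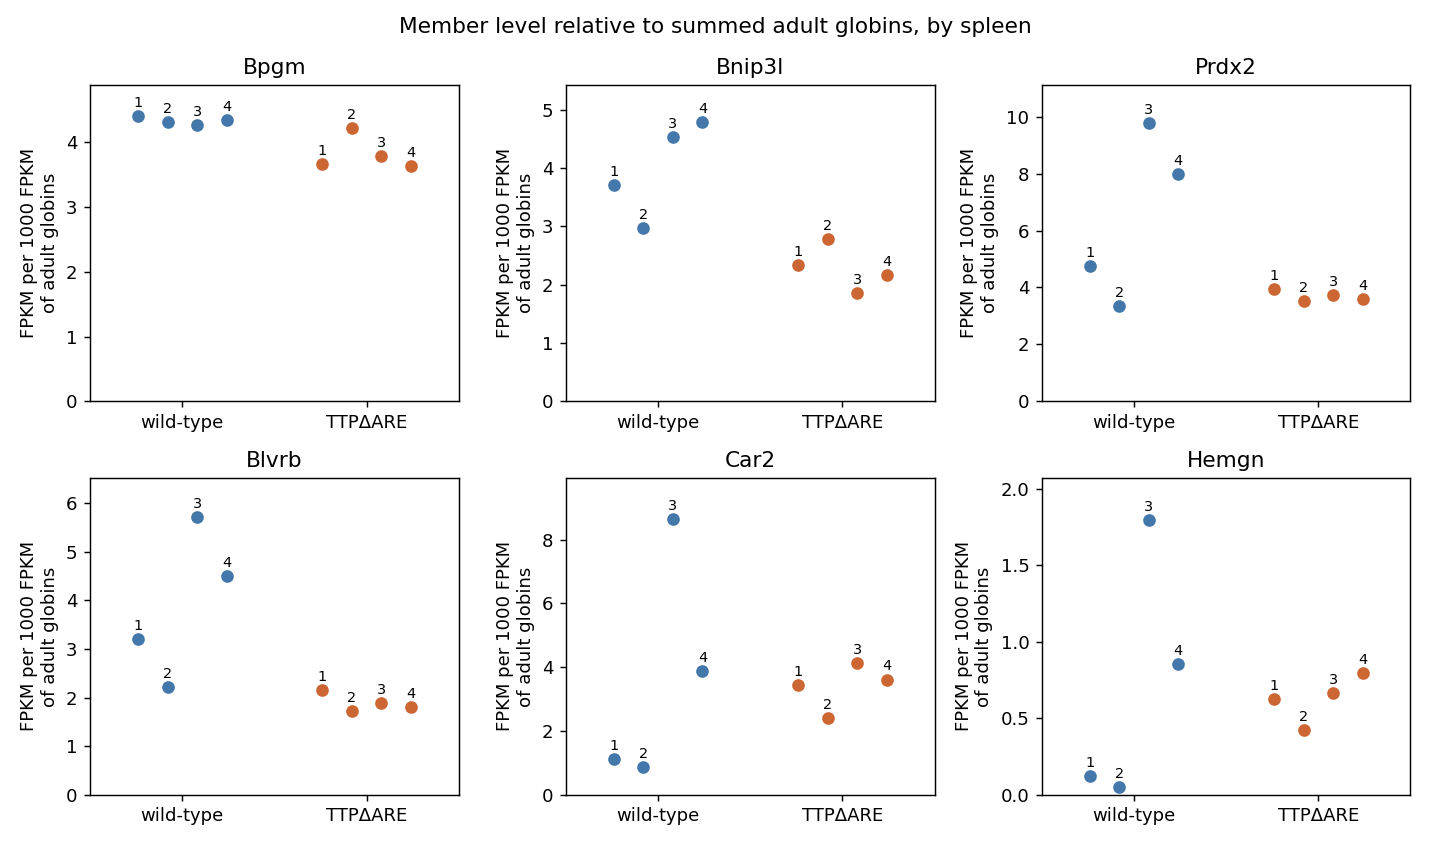
FPKM per 1000 FPKM of summed adult globins (y axis) for 6 members in each spleen, numbered by replicate. Bpgm lies between 4.26 and 4.39 in all 4 wild-type spleens, while Car2 spans 0.853 to 8.64 and Hemgn 0.0516 to 1.80 there.

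In TTPΔARE spleens the members and the globins went the same way. Summed globins were highest in replicate 3, then 4, 1 and 2. That order was shared by 7 of the 11 transcripts: both Car1 transcripts, Car2, Cldn13, Prdx2, Blvrb and Trim10. Replicates 3 and 4 were close in this sum (22082 and 21839.6 FPKM). The sum of β-globin transcripts alone had the order 4, 3, 2 and 1, which Bnip3l had, so the match in order depends on the globins summed. All 11 were lower in replicates 1 and 2 than in replicates 3 and 4. Division by the globins lowered the SD of log2 values for 10 of the 11 within TTPΔARE spleens, Bnip3l being the exception, and for 1 of the 11, Bpgm, within wild-type spleens. By gene, 6 of 10 had the order of the summed globins in TTPΔARE spleens, and 5.26% of all tested symbols did.

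With the log2 summed globin level as a covariate, limma called 0 of 11 members and 0 of 16608 transcripts, and 4 of the 11 had a p under 0.05 before adjustment, against 7.16% of all. The estimated difference at equal globin level was -0.11 for Bpgm (95% interval -0.39 to 0.16) and 0.01 for Bnip3l (-0.31 to 0.32). The estimate was larger than without the covariate, with wide intervals, for Hemgn (3.61, 1.01 to 6.22), Cldn13 (3.03, 0.98 to 5.07), Car2 (2.57, 0.43 to 4.70) and Car1 NM_009799 (2.43, 0.09 to 4.76), the 4 with an unadjusted p under 0.05. It was also larger for Car1 NM_001083957 (2.11), Trim10 (1.56) and Trim58 (1.22), and about the same for Prdx2 (0.50). Since globin levels did not overlap between the genotypes, genotype and globin level cannot be told apart well in this fit. It also takes the same globin slope in both genotypes. Hemgn, Cldn13, Car2, Car1, Trim10 and Trim58 ran against the globins in wild-type spleens and largely with them in TTPΔARE spleens. Their larger estimates therefore cannot be read as differences at equal globin level.

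Both wild-type orders were also found among other erythroid genes. Of 26 other terminal erythroid genes tested, 7 rose and 19 did not pass, against 2.26% of all 12410 tested symbols called higher. Those that rose included the iron-sulfur assembly gene Isca1 (22.9 ± 1.60 to 36.5 ± 5.86 FPKM, SD, n = 4 each, log2 0.65), the ubiquitin-conjugating Ube2l6 (0.79) and Ube2o (0.68), the ubiquitin ligases Mkrn1 (0.58) and Rnf10 (0.28), and the autophagy gene Gabarapl2 (0.45). The glutathione peroxidase gene Gpx1, at the highest level of the list, missed the threshold at a log2 value of 0.30. Ube2l6 and Mkrn1 had the wild-type order of the globins, while Tspo2, Xpo7, Ypel4, Fbxo7 and Asns had that of Car2. The list median was 0.42, and 0.0048 over all tested symbols. The number that passed was 12 without TTPΔARE replicate 2, 11 without wild-type replicate 3 and 11 with array weights, and 5 to 7 with any other spleen left out.

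Red cell membrane genes sided with Car2. Of 17 tested, 1 rose, the skeleton protein gene Epb4.1 (log2 0.44, limma adjusted p = 0.0240), against 2.26% of all tested symbols called higher. The anion exchanger Slc4a1 (1.5), the glycophorin Gypc (0.43) and the others did not pass. The list median was 1.15. Before adjustment, 15 of the 17 had a limma p under 0.05, where 21.8% of all tested symbols did. All 17 log2 values were above 0, as were those of 6409 of the 12410 tested symbols. In wild-type spleens 11 of the 17 had the order of Car2 and 0 that of the globins. Among 9 erythroid regulator genes, those of transcription factors and their cofactors and that of the erythropoietin receptor, Epor, 0 passed by limma, and 7 had a p under 0.05 before adjustment, where 21.8% of all tested symbols did. Tal1, Nfe2 and Gata1, which encode factors that drive erythroid genes, had log2 values of 1.07, 0.92 and 1.25 (limma adjusted p = 0.114, 0.114 and 0.117), while Ldb1 stood at -0.08. Without wild-type replicate 3, 16 membrane genes and 6 of these regulator genes passed, against 2.63% of all tested transcripts called higher in that fit. With replicate 1 or 4 of the wild-type or replicate 3 or 4 of the TTPΔARE spleens left out, 0 membrane genes passed.

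Family relatives of the members were mostly flat. Of 17 tested relatives, 1 rose and 1 fell: the endothelial claudin gene Cldn5 (8.84 ± 0.959 to 12.2 ± 1.76 FPKM, SD, n = 4 each, log2 0.44) and the muscle phosphoglycerate mutase gene Pgam2, which fell by 0.43 on the log2 scale (1.91% of all tested symbols were called lower). The peroxiredoxin gene Prdx1 stood at a log2 value of -0.10 and Prdx6 at 0.31, and neither passed. The list median was -0.07. Without wild-type replicate 3, 0 of the 17 passed.

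The genes most like each member across the 8 spleens were found by Pearson's r on log2(FPKM + 0.5) after subtracting each genotype's mean, over 11172 symbols with a mean of at least 1 FPKM, as a description. For Bpgm they were Beta-s (r 0.99) and Hbb-b1 (0.98), both β-globin transcripts that may share reads, and 0610010K14Rik (0.97). Those for Hemgn were Rhd, Rhag and Slc4a1 (each at 0.99 or above), all red cell membrane genes, and those for Cldn13 were Rhd, Ermap and Slc4a1. Car2 was most like the water channel gene Aqp1, Klf1 and Tal1, Trim10 most like Tal1, Klf1 and Cul4a, Car1 most like Pklr, Fam132a and Klf1, and Trim58 most like Kel, Ypel4 and Tmcc2. Bnip3l was most like Mob2, Ube2b and Clec4a1, Prdx2 most like Ppp2r4, Metap2 and Ppp1r15a, and Blvrb most like Pnp, Ifih1 and Txn2, none of them on an erythroid list. Among the 50 most alike, the erythroid lists supplied 27 for Car2, 26 for Trim58, 25 for Trim10, 24 for Cldn13 and 23 for Hemgn. They supplied 17 for Car1, 12 for Prdx2, 9 for Blvrb, 5 for Bpgm and 0 for Bnip3l. There were 75 such genes among all compared. These lists include the members themselves and the globins, so members count toward one another.

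Markers of other blood cells also varied among the same spleens. The summed level of 7 neutrophil genes was 144, 107, 271 and 88.6 FPKM in wild-type replicates 1 to 4 and 139, 123, 225 and 221 FPKM in the TTPΔARE replicates, a sum carried mostly by S100a8 and S100a9. The granule genes Mpo, Elane, Ltf, Camp and Ngp were highest in replicate 3 of each genotype. Unlike Car2 and Hemgn, they were lower in TTPΔARE replicate 4 than in replicate 1, as for Ngp at 7.41 and 9.39 FPKM. For Elane these values were close (0.708 and 0.727 FPKM). S100a8 and S100a9 were, like Car2 and Hemgn, higher in TTPΔARE replicate 4 (104 and 102 FPKM) than in replicate 1 (52.1 and 67.9 FPKM). By limma 0 of the 7 passed and 0 had an unadjusted p under 0.05. These granule genes, which define neutrophils and their precursors, were above 0 in every spleen. The sum of 6 cell cycle genes was 102, 71.5, 123 and 131 FPKM in wild-type and 123, 109, 136 and 125 FPKM in TTPΔARE spleens, lowest where Hemgn was lowest, in wild-type replicate 2, and 0 of the 6 passed, with 0 at an unadjusted p under 0.05. Summed platelet genes were 33.4 to 69.9 FPKM in wild-type and 44.5 to 79.4 FPKM in TTPΔARE spleens, and summed red pulp macrophage genes 340.5 to 517 and 475 to 519 FPKM. Among the lists of other cells, 1 of 5 B cell genes fell (Cd22, by 0.57 on the log2 scale), and 4 of the 5 had a p under 0.05 before adjustment, with a list median of -0.23 and all 5 log2 values below 0. Of 6 red pulp macrophage genes 1 rose (Emr1, log2 0.36), and 3 had a p under 0.05 before adjustment. Of the T cell and platelet lists, 0 of 5 T cell and 0 of 4 platelet genes passed by limma, with 3 of each at a p under 0.05 before adjustment. Of these, Cd3d (log2 -0.24) and Cd4 (-0.20) were lower and Cd8a (0.19) higher, while Itga2b (0.52), Pf4 (0.51) and Ppbp (0.58) were higher. Over all tested symbols limma called 2.26% higher and 1.91% lower, and 21.8% had a p under 0.05 before adjustment. The part of these cells in the member values was not tested.

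None of the members' annotated 3′ UTRs holds the TTP-binding heptamer TATTTAT. In GENCODE M21 all 11 transcripts matched a 3′ UTR, from 234 bases in Cldn13 to 2488 bases in Bnip3l, and 0 of 11 contained the word. Of 15728 tested transcripts with a 3′ UTR 26.9% contained it at least once, and the median 3′ UTR had 957 bases. Of the members, Bnip3l and Bpgm (1164 bases) have 3′ UTRs longer than that median.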

How the data were processed

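Total RNA from 8 spleens, 4 per genotype, was sequenced, and the authors deposited FPKM per RefSeq transcript and sample in 1 table. BWA and the build mm10 are named in the submitters' processing notes. How fragments were counted, and with which annotation, strand setting or filters, is not given in the sources used here. Since FPKM differ from counts, count models were not applied. At the best depth 38.3 to 42.1% of values of at most 0.5 FPKM were whole fragments within 0.05, against 8.57 to 8.77% elsewhere, so fragment counts were not rebuilt.

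Those averaging 0.5 FPKM or more over the 8 spleens, 16608 of 23517 transcripts, entered limma 3.58.1 (R 4.3.3) as log2(FPKM + 0.5) (variance trend, two-sided, Benjamini-Hochberg over all tested, threshold 0.05). In lists, each symbol was counted once, by its most abundant transcript. Globins were Hba-a1, Hba-a2, Hbb-b1, Hbb-b2 and Beta-s, whose near-identical copies share reads, so the division of reads among them is uncertain and levels are given as their sum. Nothing says whether the animals were littermates, and p-values set the genotype difference against the spread between these spleens.

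Named genes are all members, up to 4 genes per list (the 3 of smallest p and the 1 of highest mean) and the 3 genes most like each member; genes named to complete a small count, an order or the tissue check were chosen after their values were seen, and not every gene taken by the rule is named. Members, lists and tests were chosen with earlier results of these data known. Alternatives were other pseudocounts, filters, scalings, variance models, array weights, 1 transcript per symbol and leaving out each spleen. The model fit was tested on simulated data with known changes. Noise was drawn there independently for each transcript, so variation shared by many transcripts of a spleen was not covered. Promoters are from RefSeq (GRCm38.p6) and 3′ UTRs from GENCODE M21 by accession. Python 3.11.15, numpy 2.4.6, pandas 2.3.3 and matplotlib 3.10.9 were used.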

Additional observations from a re-analysis of the deposited data

Results flagged for a closer look

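None of the member transcripts had a spleen set apart from its group by the gap test applied to groups of 4. Of 116 groups of 4 examined, over members, globins, Zfp36 and the named list genes, 5 were set apart, and chance alone sets apart about 1 in 20. Wild-type replicate 3 stood above the other wild-type spleens in 4 of them. The last enzyme of heme synthesis, Fech, was at 17.4 FPKM there against 13.1 to 13.4 in the others. The neutrophil granule genes Mpo and Elane were at 4.15 against 0.520 to 0.715 FPKM and at 2.23 against 0.270 to 0.422 FPKM, and the platelet integrin Itga2b at 7.79 against 4.42 to 4.93 FPKM. The T cell gene Cd3g was at 37.9 FPKM in wild-type replicate 1 against 26.4 to 27.9 FPKM in the others.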

How the results depend on the processing

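Every member transcript kept a log2 change above 0 with each of the 8 spleens left out and in the 10 processing alternatives, except that Car1 NM_001083957 has no value with 1 transcript per symbol. The number of member transcripts called, 2 with all spleens, was 1 without a filter, with median-of-ratios scaling or without a variance trend (Bpgm in each), and 1 with a robust variance (Bnip3l), and 0 to 8 with 1 spleen left out; the cause was not tested. Over all transcripts 664 were called, and 197 to 714 with 1 spleen left out, of which 250 without wild-type replicate 4, 197 without TTPΔARE replicate 3 and 254 without TTPΔARE replicate 4. Of the calls, 50.2% were higher with all spleens and 61.2% without wild-type replicate 3. With the globin covariate the count over all transcripts was 0 to 1 with 1 spleen left out. The log2 difference in summed globins was 1.04 to 1.34 with 1 spleen left out, and its exact permutation p was 0.0571 without TTPΔARE replicate 3 or 4. Bpgm alone varied less relative to globins within wild-type spleens under each alternative tried. No paired analysis was possible because the labels give no replicate numbers shared between the genotypes. The 4 animals per group limit the precision.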

Other observations

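Heme synthesis genes showed both wild-type patterns. Alas2, which encodes the entry enzyme of heme synthesis in red cell precursors, had 26.5, 33.0, 20.2 and 19.2 FPKM in wild-type replicates 1 to 4, the order of the globins and Bpgm, and was the 1 gene of 10 with that order. Alad, Urod, Uros and Fech had the order of Car2, with Alad at 6.19, 4.99, 9.06 and 6.65 FPKM. In TTPΔARE replicates 1 to 4 Alas2 stood at 43.8, 44.7, 67.1 and 66.4 FPKM and Alad at 10.8, 7.65, 12.6 and 11.4 FPKM, each higher in replicates 3 and 4. Of the 10 heme genes 2 rose by limma, Alas2 (log2 1.15) and Fech (0.82), against 2.26% of all tested symbols called higher. Without wild-type replicate 3, 6 passed, against 2.63% of all tested transcripts called higher in that fit.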
